A study of Fundulus heteroclitus with 36 samples.

Results

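The comparison set brains of Scorton Creek killifish embryos that had been exposed to PCB126 at 40 ng/L (SCO PCB40) against brains of unexposed Scorton Creek embryos (SCO Control). The libraries were chosen by their sample titles, 6 in each group, so that 12 of the 36 libraries of the study were members. The Atlantic killifish, Fundulus heteroclitus, is a small estuarine fish. The study also held SCO Hg Fed embryos, whose parents had eaten tuna rich in methylmercury. It held 3 groups from New Bedford Harbor too, NBH PCB40, NBH PCB400 and NBH Control. NBH PCB40 and NBH PCB400 embryos were placed in PCB126 at 40 and 400 ng/L, from day 1 to day 7 after fertilisation, and were sampled at 17 days. SCO PCB40 embryos were placed in PCB126 from day 1 to day 7 after fertilisation, and SCO Control embryos are labelled as controls, with no PCB126 named. Both groups descended from Scorton Creek parents on the low-methylmercury salmon diet, so the controls carry that diet too. Each library was the whole brain of 1 embryo of 17 days, taken after the exposure had ended. Whether embryos of a group shared parents or a dissection day is not stated. The p-values therefore measure the spread between single embryos within groups, taken over all 36 libraries of the study.

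PCB126 is a dioxin-like polychlorinated biphenyl that binds the aryl hydrocarbon receptor (AHR), a transcription factor of the bHLH-PAS family. The bound receptor pairs with ARNT and switches on detoxification genes, of which CYP1A is the classical marker in fish. The AHR repressor, ahrr, is induced by the same route and damps it.

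Estimated totals, in M (mega) reads, were 40.4 to 62.7 in SCO PCB40 with a median of 49.9, and 47.9 to 62.3 in SCO Control with a median of 56.3. A count of 3 reads, the floor used for a gene not seen, corresponds to a normalised read count (CPM) of 0.0478 to 0.0742, and covers counting error only. Genes known only by a LOC number took 32.1% to 35.0% of the reads of these 12 libraries. Libraries of a group correlated at 0.937 to 0.971 across genes, and none were identical. The label of whole brain was set beside marker lists of brain and of other tissues. Summed over 31 synaptic vesicle genes the lowest, median and highest library had 4350, 4946 and 7656 CPM in SCO PCB40, against 6032, 6242 and 7797 CPM in SCO Control. Over 12 astroglia and radial glia genes they had 5917, 8926 and 11445 CPM in SCO PCB40, against 7009, 8710 and 9927 CPM in SCO Control. Over 15 photoreceptor and eye genes they had 212, 441 and 543 CPM in SCO PCB40, against 326, 461 and 499 CPM in SCO Control. The median sum of skin genes was 144 CPM in SCO PCB40 and 107 CPM in SCO Control. That of cartilage and bone genes was 173 CPM in SCO PCB40 and 127 CPM in SCO Control.

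As counted, PCB126 at 40 ng/L was followed by large rises of a few genes and small falls of many. How far falls outnumbered rises moved with the handling of transcript length, described below. Among the genes that rose between 4-fold and more than 30-fold were CYP1A, genes without a descriptive name and muscle genes described below. The gene fut9a, a fucosyltransferase that makes the Lewis x glycan, fell 3.63-fold. Of 23292 genes tested, 622 (2.67%) passed edgeR's quasi-likelihood test, with the threshold at 0.05 after Benjamini-Hochberg adjustment. They were 174 higher (0.747%) and 448 lower (1.92%). The median log2 fold change was 0.79 over the genes called higher, -0.62 over those called lower and 0.03 over all genes tested. More than 2-fold changes were seen in 63 higher and 48 lower genes, and more than 4-fold changes in 31 higher and 3 lower genes. The 3 falls were dnah12, LOC118562571 and LOC105921901, named after their values were seen, and for dnah12 (-4.95) and LOC118562571 (-4.07) no exposed library lay below every control. Every SCO PCB40 library lay above every SCO Control library for 63 of the genes called higher, where 0.481% of all genes did so. Every SCO PCB40 library lay below every SCO Control library for 220 of the genes called lower, where 1.46% of all genes did so.

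The number of calls and the excess of falls moved with transcript length and with single libraries. The length slope regresses a library's log2 deviation from the average library on log2 transcript length. It was -0.18 to 0.20 in SCO PCB40 and negative in 3 of 6 libraries (replicates 4, 5 and 6), against 0.02 to 0.14 in SCO Control and negative in none. Removing the length trend from each library left 356 calls, 187 higher and 169 lower, so that 52.5% of calls were higher against 28.0% as counted. Of these, 245 were among the 622 (103 higher, 142 lower). With the slope entered as a covariate instead, 760 genes were called, 247 higher and 513 lower (32.5% higher), with 326 among the 622. A fit chosen after seeing the data, which kept only Scorton Creek libraries with a positive slope and so lacked SCO PCB40 replicates 4 to 6, called 207 genes, 63 higher and 144 lower, with 126 among the 622. Leaving out SCO PCB40 replicate 2, 4 or 5 gave 1462, 252 and 247 calls, and leaving out SCO Control replicate 1, 3 or 4 gave 260, 368 and 286. The spread of all 36 libraries set the error. With these 12 libraries alone the test called 96 genes, 89 of them among the 622. Of 47 called genes on the gene lists 13 were called there.

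Genes called lower were long and genes called higher were short. The median effective transcript length was 1524 bases for genes called higher, 4296 bases for genes called lower and 2080 bases for all genes tested. In the longest of 5 length classes of nearly equal size, above 3802 bases, there were 272 of the 448 falls and 7 rises. In the shortest class, up to 1071 bases, there were 43 rises and 9 falls. With the length trend removed the longest class held 57 rises and 61 falls. What the length slope of a library reflects was not tested. With the trend removed the calls also ended for slc8a2b, atp2a2b, kdm2ab, bhlhe41, psma6a, ascl1b, avp, mybpc2b, mag, cldn19, gch2 and sparc, which are described with their lists.

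**Figure D1:**
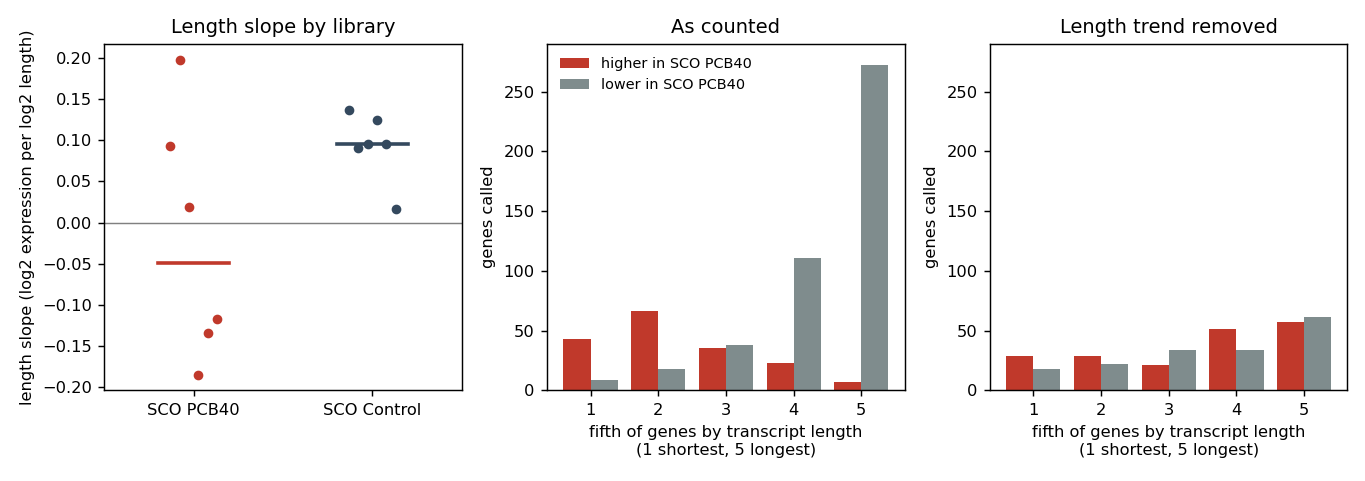
Left: length slope of each library (1 point each, bar at the median) for SCO PCB40 and SCO Control. Middle and right: genes called higher and lower in SCO PCB40 in 5 classes of effective transcript length, as counted and with the length trend removed, where 272 falls stand in the longest class as counted and 61 with the trend removed.

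CYP1A, the cytochrome P450 that oxidises AHR ligands, had 97.8, 125 and 270 CPM as lowest, median and highest value in SCO PCB40, against 1.08, 2.55 and 11.0 CPM in SCO Control. The lowest exposed brain was thus far above the highest control brain, and the exposed library with the highest value was replicate 5. The fit gave a log2 fold change of 4.96 (SE 0.71, adjusted p 1.66e-04), a 31.0-fold rise. Per transcript length, the median level was 59.2 TPM in SCO PCB40 and 1.28 TPM in SCO Control. The call held in all 21 alternative fits run for it.

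The repressor ahrr had 0.207, 0.483 and 1.64 CPM in SCO PCB40, against 0.0582, 0.183 and 0.312 CPM in SCO Control, and 4 of 6 exposed libraries lay above every control. In reads it had 11, 25 and 86 in SCO PCB40, against 3, 10 and 19 in SCO Control. Its log2 fold change was 1.81 (SE 0.59), and it was not called (adjusted p 0.084). The list of AHR targets had 20 entries, of which 6 could be tested. CYP1A alone passed, and the log2 fold changes of all 6 were above 0. Their median was 1.09 as counted and 1.01 with the length trend removed. It was 0.52 without SCO PCB40 replicates 4 to 6, a fit chosen after seeing the data. Beside CYP1A and ahrr, the log2 fold changes were 1.18 for nqo1, a quinone reductase, 1.01 for wfikkn1, 0.24 for the glutathione transferase gsta.1 and 0.15 for lgals3a. Of 7 genes for the receptor and its partners none was called. The receptor ahr2 averaged 3.46 CPM in SCO PCB40 and 2.98 CPM in SCO Control (log2 fold change 0.21, adjusted p 0.53). Its partner arnt2 averaged 17.0 CPM in SCO PCB40 and 27.9 CPM in SCO Control (-0.71, SE 0.21, adjusted p 0.059), with 4 of 6 exposed libraries below every control.

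**Figure D2:**
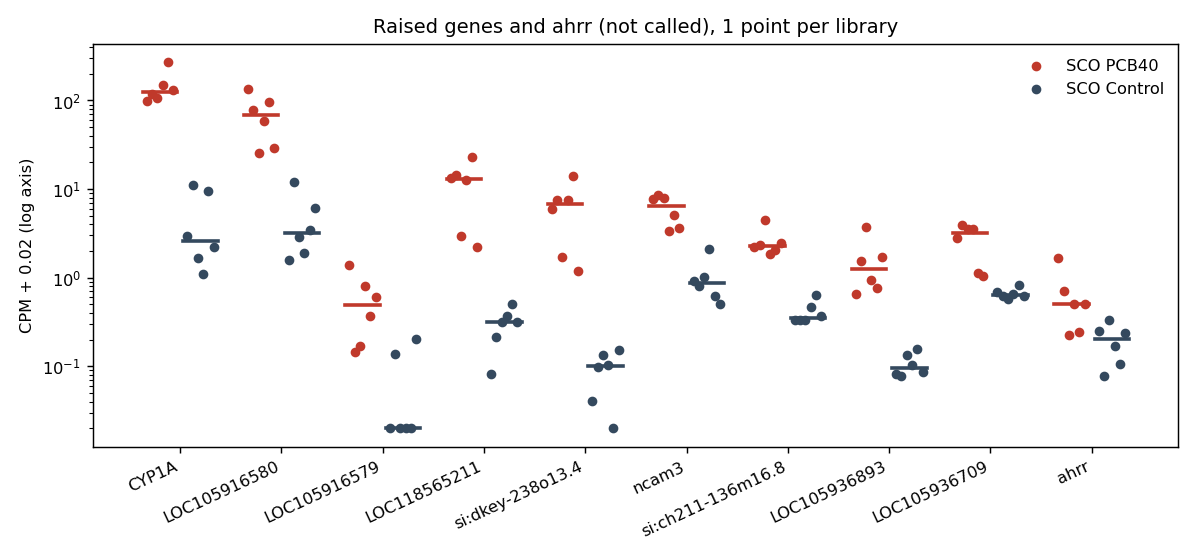
CPM plus 0.02 on a log axis for 10 genes in SCO PCB40 (left of each pair) and SCO Control (right), 1 point per library with a bar at the median. The groups do not overlap for CYP1A, ncam3 or 6 of the uncharacterised genes, and they overlap for LOC105916579 and ahrr.

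Of 10052 tested genes with only a LOC number, 209 were called (2.08%), 62 higher (0.617%) and 147 lower (1.46%), against 413 of 13240 genes with a symbol or synonym (3.12%), of which 0.846% were higher and 2.27% lower. Among the 31 genes more than 4-fold higher, 13 had only a LOC number and 18 had a symbol or synonym. Of all 23292 genes tested, 10052 had only a LOC number. In 14 of the 31 every exposed library lay above every control, where 0.481% of all genes did so. LOC118565211 had 2.18, 13.0 and 23.0 CPM in SCO PCB40, against 0.0626, 0.297 and 0.485 CPM in SCO Control. The groups did not overlap, and the log2 fold change of 5.32 (SE 0.74, adjusted p 1.20e-04) held in every alternative. LOC105916580 had 25.4, 68.4 and 135 CPM in SCO PCB40, against 1.56, 3.14 and 12.1 CPM in SCO Control. Its log2 fold change was 3.92 (SE 0.65, adjusted p 7.71e-04). Per transcript length, its median was 29.5 TPM in SCO PCB40 and 1.46 TPM in SCO Control.

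Another pair of LOC genes had control levels near the floor. LOC105936893 had 0.629, 1.22 and 3.69 CPM in SCO PCB40, against 0.0582, 0.0746 and 0.139 CPM in SCO Control (log2 fold change 4.09, SE 0.71, adjusted p 0.00102). The groups stood apart, although voom did not call the gene (adjusted p 0.081). LOC105917137 had 4 to 41 reads in the exposed libraries, against 0 to 1 read in the controls, so it was at least 6.55-fold higher when the controls are set to the floor of 3 reads per library. LOC105915884 (2.41, SE 0.47) and LOC105936709 (2.03, SE 0.38) were also higher in 6 of 6 libraries than in any control. LOC105936709, a short transcript, had 1.02, 3.16 and 3.91 CPM in SCO PCB40, against 0.558, 0.615 and 0.814 CPM in SCO Control.

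Smaller rises with separate groups were those of LOC105935021 and LOC105917072. LOC105935021 had 12.4, 16.4 and 20.4 CPM in SCO PCB40, against 7.42, 8.01 and 10.7 CPM in SCO Control (log2 fold change 0.93, SE 0.15, adjusted p 7.25e-04). LOC105917072 had 65.0, 88.6 and 104 CPM in SCO PCB40, against 36.9, 49.3 and 51.7 CPM in SCO Control (0.91, SE 0.16, adjusted p 0.00104). The call of LOC105917072 ended without SCO PCB40 replicates 4 to 6 (0.64, adjusted p 0.088). LOC118566952, chosen after its values were seen, was above every control in 6 of 6 libraries, with 4.6 to 157 reads in SCO PCB40 and 0 to 4 reads in SCO Control (5.22, SE 1.1, adjusted p 0.00725).

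The largest fitted rise was that of a long noncoding RNA, and it rested on 1 embryo. LOC118558822, chosen after its values were seen, had a median of 3 reads in SCO PCB40 and 961 reads in replicate 5, against 0 to 2 reads in SCO Control. Its log2 fold change was 7.38 (SE 1.53, adjusted p 0.00625), and 1.71 (adjusted p 0.47) without SCO PCB40 replicate 5. Of 1580 long noncoding RNAs tested, 6 were called (0.38%), 5 higher (0.316%) and 1 lower (0.0633%). Of 21672 protein-coding genes 2.84% were called, 0.78% higher and 2.06% lower.

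Called genes stood next to each other in the RefSeq gene order in 25 cases, 6 with both members higher, 12 with both lower and 7 with opposite signs. The pair with the smallest p was si:dkey-238o13.4 and LOC118565211. The gene si:dkey-238o13.4 had 1.18, 6.72 and 13.9 CPM in SCO PCB40, against 0, 0.0802 and 0.133 CPM in SCO Control (log2 fold change 6.39, SE 0.89, adjusted p 1.20e-04), and voom did not call it (adjusted p 0.066). It and LOC118565211 were lowest in the same 2 exposed libraries, replicates 3 and 6. LOC105916580 neighbours LOC105916579, chosen after its values were seen, which had 0.125, 0.467 and 1.37 CPM in SCO PCB40, against 0, 0 and 0.183 CPM in SCO Control. It overlapped with the controls in 2 of 6 exposed libraries, its log2 fold change was 3.43 (SE 0.88, adjusted p 0.028), and the call ended without SCO PCB40 replicate 1 or 4 or SCO Control replicate 1, 3, 4 or 5. How reads were divided between similar neighbouring genes could not be checked from the files.

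The gene beside CYP1A was lower. LOC105923567, chosen after its values were seen, had 11.3, 17.9 and 35.8 CPM in SCO PCB40, against 36.6, 47.0 and 50.6 CPM in SCO Control (log2 fold change -1.1, SE 0.29, adjusted p 0.036). All 6 exposed libraries were below every control, but the call ended in 11 of 21 alternatives, among them without SCO PCB40 replicate 3, 4, 5 or 6 and without SCO Control replicate 1, 2, 3, 4 or 6. Other pairs were si:dkey-148a17.6 (0.92, SE 0.21, adjusted p 0.0145) with LOC105930462 (1.92, SE 0.43, adjusted p 0.0108), both higher in 6 of 6 libraries than in any control. Both calls ended without SCO PCB40 replicates 4 to 6 (adjusted p 0.102 and 0.179).

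Among raised genes with a symbol, ncam3, named after the neural cell adhesion molecules, had 3.39, 6.44 and 8.59 CPM in SCO PCB40, against 0.482, 0.846 and 2.09 CPM in SCO Control (log2 fold change 2.63, SE 0.49, adjusted p 0.00206). The uncharacterised si:ch211-136m16.8 had 1.84, 2.27 and 4.46 CPM in SCO PCB40, against 0.310, 0.331 and 0.624 CPM in SCO Control (2.69, SE 0.47, adjusted p 0.00102). Neither gene overlapped between the groups, and both calls held in every alternative.

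The mannosyltransferase alg3, which builds the lipid-linked precursor of N-glycans, had 11.7, 15.7 and 18.6 CPM in SCO PCB40, against 7.26, 8.34 and 9.83 CPM in SCO Control (log2 fold change 0.88, SE 0.14, adjusted p 6.96e-04). The sulfatase-modifying factor sumf1, which activates sulfatases in the endoplasmic reticulum, had 20.2, 23.1 and 27.3 CPM in SCO PCB40, against 14.5, 16.6 and 18.7 CPM in SCO Control (0.51, SE 0.09, adjusted p 0.00135). The groups stood apart for both. In the fit of only these 12 libraries sumf1 had an adjusted p of 0.060. The gene with NCBI Gene ID 105920623 (0.98, SE 0.18, adjusted p 0.00206) and chchd3b, a subunit of the mitochondrial cristae-organising complex (0.97, SE 0.18, adjusted p 0.00256), were above every control in 6 of 6 libraries. Of the 17 measured CHCHD and mitochondrial import genes, chchd3b alone was called, where 2.67% of all genes were, and the list had a median of 0.09.

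The gene with the smallest p was fut9a. It had 8.30, 11.1 and 15.3 CPM in SCO PCB40, against 27.7, 40.7 and 62.0 CPM in SCO Control. The ranges were far apart, at a log2 fold change of -1.86 (SE 0.16, adjusted p 1.15e-08), and of -1.60 with the length trend removed. A second glycan enzyme, casd1, which adds acetyl groups to sialic acid, had 19.6, 27.9 and 33.8 CPM in SCO PCB40, against 50.3, 62.3 and 66.0 CPM in SCO Control (-1.1, SE 0.18, adjusted p 6.90e-04). Of 25 genes on the glycan list these 2 fell and alg3 rose, where 1.92% of all genes fell and 0.747% rose. The list median was -0.05 against 0.03 for all genes. This list and the other gene lists were chosen with earlier results of these data known. The shares called, here and below, are therefore no independent test of a list.

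The chromatin gene kmt2e, of the trithorax-related methyltransferase family, had 3.77, 4.94 and 6.18 CPM in SCO PCB40, against 9.44, 12.7 and 14.0 CPM in SCO Control (log2 fold change -1.27, SE 0.15, adjusted p 3.76e-06). The SH2 and SH3 adaptor crk, which links tyrosine kinases to small GTPases, had 6.38, 10.9 and 12.6 CPM in SCO PCB40, against 18.4, 21.0 and 24.3 CPM in SCO Control (-1.05, SE 0.15, adjusted p 1.66e-04). The uncharacterised si:ch211-183d21.3 had 4.68, 7.39 and 11.0 CPM in SCO PCB40, against 14.7, 18.2 and 21.5 CPM in SCO Control (-1.25, SE 0.16, adjusted p 3.32e-05). No exposed library reached a control for any of them, and their calls held in every alternative.

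The G protein subunit gnb1b had 197, 231 and 277 CPM in SCO PCB40, against 321, 355 and 418 CPM in SCO Control (log2 fold change -0.66, SE 0.10, adjusted p 1.66e-04). The ubiquitin-associated protein gene ubap2l fell by 0.71 (SE 0.10), the endosomal phosphatase gene ptpn23a by 0.77 (SE 0.12) and the uncharacterised si:dkey-175g6.2 by 0.86 (SE 0.13) on the log2 scale. For each of these, 6 of 6 exposed libraries lay below every control. In the fit of only these 12 libraries ptpn23a had an adjusted p of 0.052.

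**Figure D3:**
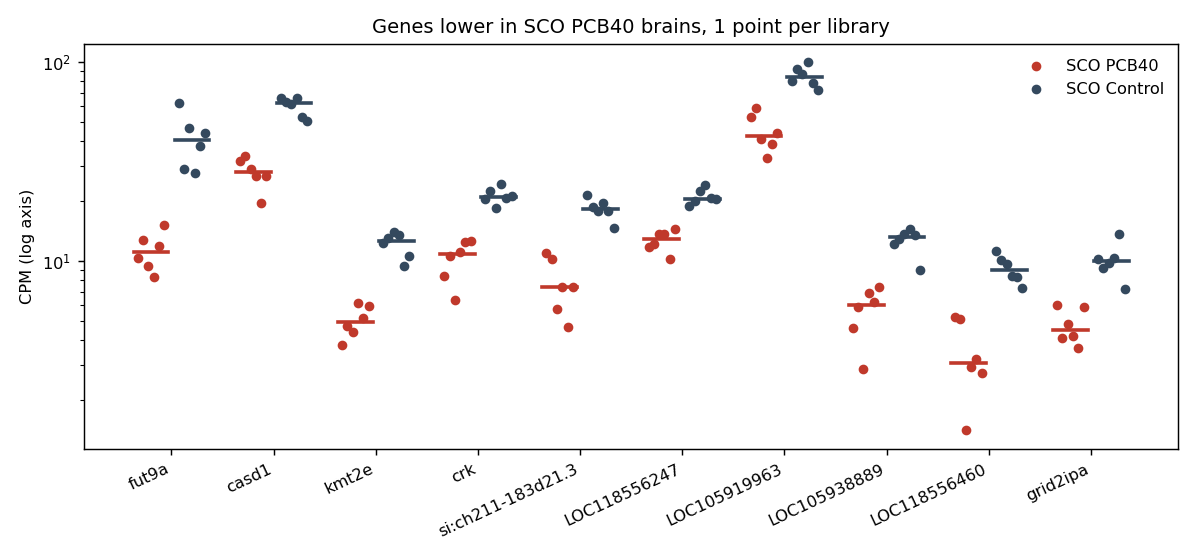
CPM on a log axis for 10 genes in SCO PCB40 (left of each pair) and SCO Control (right), 1 point per library with a bar at the median. No exposed library reached the lowest control in any of the 10.

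Among genes with only a LOC number, the log2 fold changes of the 147 called lower ran from -4.07 to -0.30 with a median of -0.63. In 60 of them every exposed library lay below every control, where 1.46% of all genes did so. LOC105919963 had 32.7, 42.3 and 58.5 CPM in SCO PCB40, against 71.9, 83.7 and 99.4 CPM in SCO Control (-0.93, SE 0.14, adjusted p 4.53e-04). LOC105938889 had 2.88, 6.05 and 7.43 CPM in SCO PCB40, against 9.03, 13.3 and 14.5 CPM in SCO Control (-1.16, SE 0.19, adjusted p 7.78e-04). The groups stood apart for both genes, and both calls held in every alternative. LOC118556247, with an effective transcript length of 1313 bases, had 10.2, 12.9 and 14.5 CPM in SCO PCB40, against 18.9, 20.5 and 24.0 CPM in SCO Control (-0.74, SE 0.10, adjusted p 1.20e-04). Its fold change was -0.84 with the length trend removed.

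The calls of 2 of the LOC genes ended with the length trend removed and in the fit of only these 12 libraries. LOC105932528 had 388, 450 and 497 CPM in SCO PCB40, against 573, 638 and 685 CPM in SCO Control (log2 fold change -0.49, SE 0.08, adjusted p 8.11e-04). With the length trend removed it was at -0.25 (adjusted p 0.20), and the similar call of LOC105933454 (-0.52, SE 0.08) was at -0.21 (adjusted p 0.325). LOC105933597 (-0.70, SE 0.11), LOC105936753 (-0.63, SE 0.10) and LOC105919263 (-0.64, SE 0.11) remained called with the trend removed, with 6, 6 and 5 of 6 exposed libraries below every control. In the fit of only these 12 libraries LOC105936753 and LOC105919263 had adjusted p of 0.075 and 0.092.

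Of 37 genes for glutamate receptors and their scaffolds, 5 were called, all lower, where 1.92% of all genes were, and the median log2 fold change was -0.30 against 0.03 for all genes. The scaffold shank1, which anchors receptors to the actin skeleton, had 0.846, 1.68 and 2.31 CPM in SCO PCB40, against 3.87, 3.94 and 5.48 CPM in SCO Control (-1.33, SE 0.26, adjusted p 0.00298). The exchange factor iqsec2b, which acts on ARF GTPases at synapses, had 8.99, 15.4 and 18.6 CPM in SCO PCB40, against 24.7, 26.7 and 33.7 CPM in SCO Control (-0.95, SE 0.15, adjusted p 5.72e-04). The delta receptor partner grid2ipa fell by 1.08 (SE 0.17, adjusted p 4.77e-04) and, like both, had no exposed library within the control range. The receptor subunits gria4b (-0.56, SE 0.14, adjusted p 0.029) and grin2ab (-0.60, SE 0.15, adjusted p 0.023) completed the calls. Neither of these 2 was called with the length trend removed (adjusted p 0.15 and 0.403). The call of gria4b ended without SCO PCB40 replicate 4, 5 or 6 or SCO Control replicate 3, 4 or 5, and that of grin2ab without SCO PCB40 replicate 4 or 5 or SCO Control replicate 1 or 4.

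Not all receptor subunits moved the same way. The NMDA receptor subunit grin2aa averaged 22.9 CPM in SCO PCB40 and 13.0 CPM in SCO Control (log2 fold change 0.81, SE 0.27, adjusted p 0.086), and 31 of the 37 genes had a fold change below 0. With the length trend removed the list's median was -0.06, with 3 members called lower and 1 higher. In that fit 169 of all 23292 genes were called lower and 187 higher. None of 31 synaptic vesicle genes (median -0.18) or 29 voltage-gated channels (median -0.19) was called.

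Of 20 measured cell adhesion genes, ncam3 rose and 5 fell, where 0.747% of all genes rose and 1.92% fell. The list median was -0.31 (-0.13 with the length trend removed). The postsynaptic neuroligins nlgn2a (-0.61, SE 0.12, adjusted p 0.00434) and nlgn3b (-0.51, SE 0.14, adjusted p 0.040) fell with every exposed library below every control, as did the axonal adhesion molecule l1cama (-0.62, SE 0.17, adjusted p 0.042). The presynaptic neurexin nrxn2a (-0.49, SE 0.13, adjusted p 0.031) and the cadherin cdh4 (-0.50, SE 0.13, adjusted p 0.027) overlapped with the controls in 1 and 2 libraries. With the length trend removed 1 of these 5 falls was called, that of l1cama. There nlgn2a was at -0.33 (adjusted p 0.12), nlgn3b at an adjusted p of 0.074, nrxn2a at 0.136 and cdh4 at -0.17 (adjusted p 0.655). The calls of nlgn3b, l1cama and nrxn2a ended without SCO PCB40 replicate 4, 5 or 6 or SCO Control replicate 1, 2, 4 or 5, those of nlgn3b and l1cama also without SCO Control replicate 3, and that of cdh4 without SCO PCB40 replicate 5 or SCO Control replicate 1 or 2. Among 39 axon guidance genes (median -0.24, or -0.03 with the trend removed) the repellents sema3ab (-0.75, SE 0.13, adjusted p 0.00153) and slit1b (-0.61, SE 0.12, adjusted p 0.00486) fell with separate groups, but neither call held with the trend removed (adjusted p 0.13 and 0.21).

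The median log2 fold change of 55 chromatin modifiers was -0.17 as counted and -0.0012 with the length trend removed. Of the 55, 4 fell, where 1.92% of all genes did, and none rose. Beside kmt2e these were arid2, a subunit of a SWI/SNF remodelling complex (log2 fold change -0.87, SE 0.14, adjusted p 7.60e-04), setd5 (-0.52, SE 0.14, adjusted p 0.041) and the histone demethylase kdm2ab. With the length trend removed 2 of the 4 falls were called, kmt2e and arid2, and setd5 had an adjusted p of 0.371. The call of arid2 ended in the fit of only these 12 libraries (adjusted p 0.057), and that of setd5 without SCO PCB40 replicate 3, 4, 5 or 6 or SCO Control replicate 1, 2, 3, 4 or 5. In kdm2ab the value followed 1 control, replicate 3, at 108 CPM. It had 11.4, 16.9 and 23.0 CPM in SCO PCB40, against 16.4, 24.9 and 108 CPM in SCO Control (-1.18, SE 0.29, adjusted p 0.024). Without SCO Control replicate 3 it was at -0.53 (adjusted p 0.15), and the call also ended without SCO PCB40 replicate 5 or SCO Control replicate 1.

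Calcium and metal transport genes held 5 falls, where 1.92% of all genes fell. The sodium-calcium exchanger slc8a2b (log2 fold change -0.96, SE 0.19, adjusted p 0.00449), the sarco-endoplasmic calcium pump atp2a2b (-0.50, SE 0.12, adjusted p 0.018) and the calmodulin gene calm2a (-0.35, SE 0.10, adjusted p 0.041) fell among 26 calcium genes with a median of -0.16. The gene calm2a had 1639, 2058 and 2290 CPM in SCO PCB40, against 2262, 2619 and 2867 CPM in SCO Control. Its groups overlapped in 1 exposed library, and its call ended in 13 of 21 alternatives, among them without SCO PCB40 replicate 2, 3 or 4 and without SCO Control replicate 1, 3, 4 or 6. The call of atp2a2b ended without SCO PCB40 replicate 5 or SCO Control replicate 1. Of 19 metal genes the zinc exporter slc30a1a (-0.97, SE 0.22, adjusted p 0.0108) and the zinc importer slc39a10 (-0.43, SE 0.10, adjusted p 0.017) fell, both with separate groups. In the fit of only these 12 libraries slc30a1a had an adjusted p of 0.051. With the length trend removed slc30a1a was at -1.05 and slc39a10 at -0.15 (adjusted p 0.58).

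Regulators of rhythm, hormone release and neuron formation gave single calls, where 2.67% of all genes were called. They were 1 of 27 clock, 1 of 15 neuropeptide and hypothalamus and 1 of 27 neuron differentiation genes. A single call does not describe a list as a whole. The clock repressor bhlhe41 had 14.9, 27.0 and 40.5 CPM in SCO PCB40, against 41.3, 45.5 and 63.5 CPM in SCO Control (log2 fold change -0.88, SE 0.21, adjusted p 0.018). The groups only just stood apart, and the call ended without SCO PCB40 replicate 4 or 5 or SCO Control replicate 1. The other 26 clock genes did not pass, and the list's median was -0.26. The vasotocin precursor gene listed as avp was lower (-0.75, SE 0.21, adjusted p 0.044), and the proneural factor ascl1b was higher (0.86, SE 0.23, adjusted p 0.041). The calls of avp and ascl1b ended in 14 and 13 of 21 alternatives, in both without SCO PCB40 replicate 4 or 5 or SCO Control replicate 1, 2, 3 or 4, and for avp also without SCO PCB40 replicate 3 or SCO Control replicate 5. The proteasome subunit psma6a was higher in 6 of 6 libraries than in any control (0.39, SE 0.10, adjusted p 0.027), and the other 26 proteasome genes did not pass. Its call ended without SCO PCB40 replicate 4 or 5 or SCO Control replicate 1, 4 or 5.

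**Figure D4:**
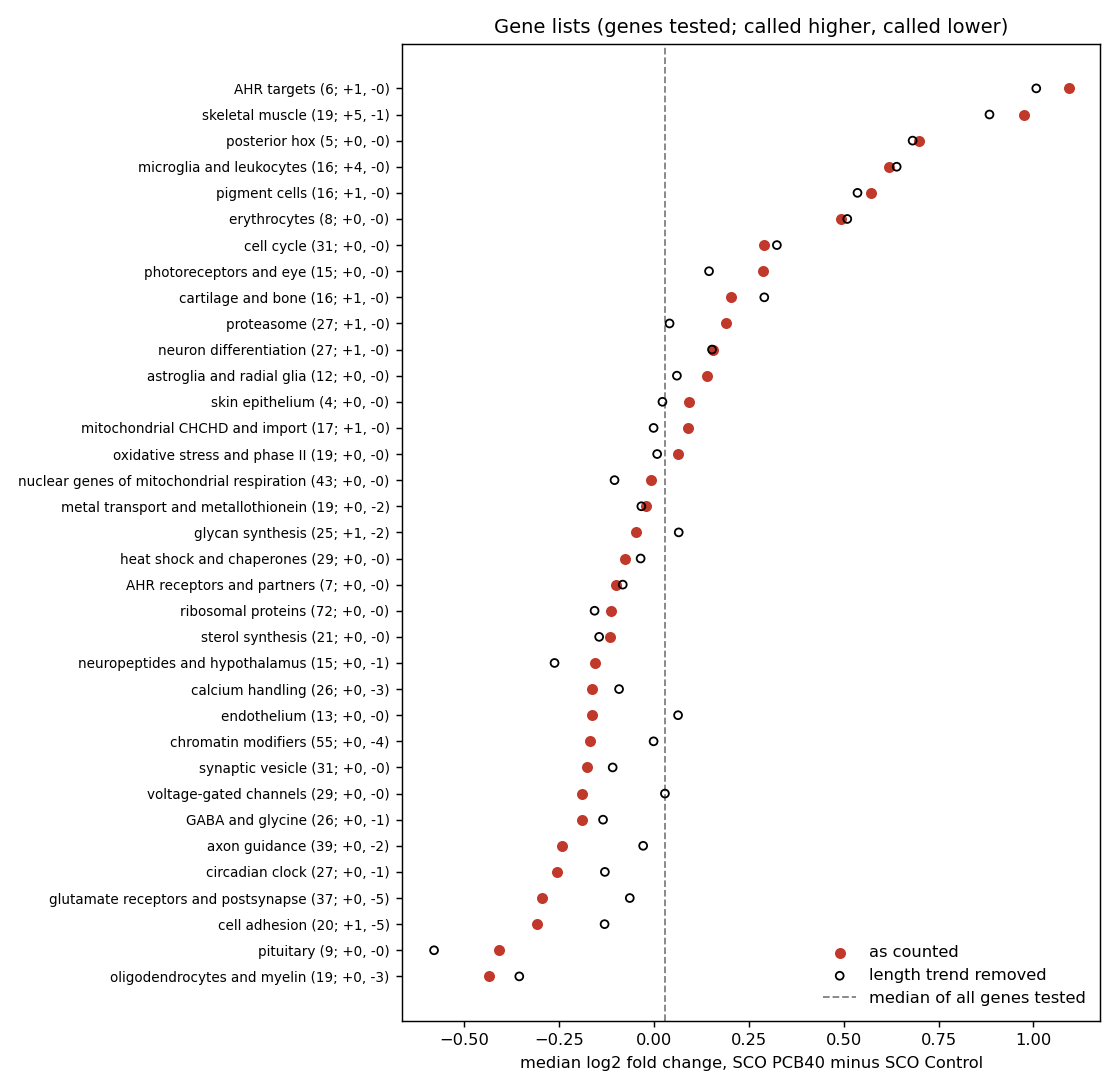
Median log2 fold change (SCO PCB40 minus SCO Control) of each of 35 gene lists, filled as counted and open with the length trend removed, with the dashed line at the median of all genes tested. The genes tested and the numbers called higher and lower stand beside each name, and the glutamate, axon guidance and chromatin lists lie near 0 with the trend removed.

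Of 16 measured markers of microglia and other leukocytes, 4 rose, where 0.747% of all genes did, and none fell. The median log2 fold change was 0.62, or 0.64 with the length trend removed. The haematopoietic signalling protein gene hcls1 had 2.14, 3.06 and 4.67 CPM in SCO PCB40, against 1.14, 1.66 and 1.80 CPM in SCO Control (1.06, SE 0.20, adjusted p 0.00206). The groups stood apart, and the call held in every alternative. The lysosomal cathepsin gene ctss2.1 averaged 20.0 CPM in SCO PCB40 and 10.4 CPM in SCO Control (0.94, SE 0.27, adjusted p 0.049), above every control in 6 of 6 libraries. Its call ended in 16 of 21 alternatives, among them without SCO PCB40 replicate 3, 4, 5 or 6 and without any 1 of the 6 controls. The myeloid transcription factor spi1b (0.79, SE 0.22, adjusted p 0.040) and the progranulin gene grna (0.69, SE 0.19, adjusted p 0.040) were above every control in 5 of 6. Both calls ended without SCO PCB40 replicate 1, 4 or 5 or SCO Control replicate 1, 4 or 5, that of spi1b also without SCO PCB40 replicate 6 or SCO Control replicate 6, and that of grna without SCO PCB40 replicate 2 or 3 or SCO Control replicate 3. The pan-leukocyte marker ptprc was level at 0.542 CPM in SCO PCB40 and 0.541 CPM in SCO Control, and csf1rb was at -0.08. The summed level of the list was 225, 258 and 319 CPM in SCO PCB40, against 205, 249 and 272 CPM in SCO Control. In whole brains, more cells of a type and more RNA per cell cannot be told apart.

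Of 19 oligodendrocyte and myelin genes 3 fell, where 1.92% of all genes did. In 17 the log2 fold change was below 0, and the list median was -0.44 (-0.36 with the length trend removed). The myelin-associated glycoprotein gene mag had 8.68, 15.6 and 23.5 CPM in SCO PCB40, against 25.8, 29.5 and 43.1 CPM in SCO Control (-1.04, SE 0.28, adjusted p 0.040). The progenitor transcription factor nkx2.2a (-0.45, SE 0.12, adjusted p 0.037) also had every exposed library below every control, and the claudin cldn19 (-0.51, SE 0.14, adjusted p 0.048) had 4 of 6. These calls ended in 12, 11 and 16 of 21 alternatives, for all 3 without SCO PCB40 replicate 3, 4 or 5 or SCO Control replicate 1, 2, 3 or 4. The calls of nkx2.2a and cldn19 also ended without SCO Control replicate 5, those of mag and cldn19 without SCO PCB40 replicate 6, and that of nkx2.2a without SCO PCB40 replicate 1. The myelin basic protein gene mbpa averaged 1251 CPM in SCO PCB40 and 841 CPM in SCO Control and did not pass (0.57, SE 0.20, adjusted p 0.12). The summed level of the list was 1917, 2499 and 3200 CPM in SCO PCB40, against 1942, 2622 and 2931 CPM in SCO Control.

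Of 19 skeletal muscle genes 5 rose and 1 fell, where 0.747% of all genes rose and 1.92% fell. The summed level of the 19 was 30.9, 82.3 and 417 CPM in SCO PCB40, against 30.0, 44.2 and 61.9 CPM in SCO Control. The highest sum belonged to SCO PCB40 replicate 3. Muscle genes also stood among the rises of more than 4-fold, with the creatine kinases ckma and ckmb, the actin acta1b, the troponin tnnt3a and the myoglobin gene mb. The muscle creatine kinase ckmb had 0.743, 3.51 and 24.0 CPM in SCO PCB40, against 0.250, 0.552 and 1.71 CPM in SCO Control (log2 fold change 3.16, SE 0.78, adjusted p 0.022), and was at 2.17 (adjusted p 0.090) without that library. The muscle calcium pump atp2a1l (2.78, SE 0.71, adjusted p 0.028) was at 1.60 (adjusted p 0.16) without it. The calls of ckma, acta1b and tnnt3a also ended without it (adjusted p 0.101, 0.199 and 0.219). The result of mb without that library is not given here. The calls of ckmb and atp2a1l also ended without SCO Control replicate 1, 3 or 4, and that of atp2a1l without SCO Control replicate 5. The myosin-binding protein gene mybpc2b (-1.33, SE 0.33, adjusted p 0.026) had 1.84, 2.56 and 2.88 CPM in SCO PCB40, against 1.82, 2.73 and 15.6 CPM in SCO Control, so that the groups overlapped almost wholly, and its call ended without SCO PCB40 replicate 4 or 5 or SCO Control replicate 1 or 5.

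None of 8 erythrocyte genes was called, and their median log2 fold change was 0.49. Their summed level was 119, 142 and 221 CPM in SCO PCB40, against 116, 120 and 164 CPM in SCO Control. Of 16 pigment genes gch2, a GTP cyclohydrolase of pteridine synthesis, rose (0.98, SE 0.24, adjusted p 0.022). Of 16 cartilage and bone genes the matrix protein gene sparc rose (0.55, SE 0.15, adjusted p 0.043). These were single calls in their lists, where 0.747% of all genes rose. The call of gch2 ended without SCO PCB40 replicate 3 or SCO Control replicate 1 or 4, and that of sparc in 15 of 21 alternatives, including without SCO PCB40 replicate 1, 4, 5 or 6 and without any 1 of the 6 controls. The part of muscle, blood or other tissue in the calls of other genes was not tested.

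At the level of single transcripts, 267 of 37367 were called (0.715%), 63 higher (0.169%) and 204 lower (0.546%), in 264 genes. Most repeated the gene result, since 241 of them belonged to 239 genes that were called as a whole. The other 26, 5 higher and 21 lower, belonged to 25 genes whose sum was not called. Removing the length trend left 144 transcript calls, 68 higher and 76 lower. These are Salmon's estimates, and how it divided reads between transcripts that share exons could not be checked from the files.

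Among them, 1 transcript of LOC105939694 (XM_036136036.1) took 57.1%, 71.8% and 75.1% of its gene's reads in SCO PCB40, against 22.0%, 43.6% and 52.8% in SCO Control. The groups did not overlap, and the transcript rose (log2 fold change 0.89, SE 0.20, adjusted p 0.025) while the gene was at 0.13 (adjusted p 0.62). A transcript of arvcfb (XM_021323364.2), a catenin of the p120 family, rose by 0.58 (SE 0.14, adjusted p 0.049) while the gene was at 0.23 (adjusted p 0.16).

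A transcript of znf385a (XM_012866555.3), a zinc finger gene, took 2.68%, 9.68% and 17% of the gene's reads in SCO PCB40, against 19.6%, 31.9% and 39.8% in SCO Control (log2 fold change -1.57, SE 0.33, adjusted p 0.019). The shares stood apart, but in CPM 5 of 6 exposed libraries lay below every control. The whole gene was at -0.14 (adjusted p 0.59). A minor transcript of srek1 (XM_036140461.1), a splicing regulator, took 0.137%, 0.618% and 0.793% in SCO PCB40, against 1.74%, 2.38% and 5.07% in SCO Control (-2.80, SE 0.56, adjusted p 0.011). The whole srek1 gene was at -0.48 (adjusted p 0.072). A transcript of ppp3r1a (XM_036126455.1), the regulatory subunit of the phosphatase calcineurin, had 103, 130 and 144 CPM in SCO PCB40, against 154, 174 and 205 CPM in SCO Control (-0.48, SE 0.09, adjusted p 0.00359), with the gene at -0.10. A transcript of hook3 (XM_036140162.1), a dynein adaptor, fell by 0.82 (SE 0.17), that of LOC105923823 (XM_036132932.1) by 1.1 (SE 0.16) and that of LOC105926900 (XM_036143736.1) by 0.74 (SE 0.17) on the log2 scale, each below every control in 6 of 6 libraries. The whole genes were at -0.24 (adjusted p 0.69), 0.35 (adjusted p 0.61) and -0.38 (adjusted p 0.051), in that order. Results of these single transcripts with the length trend removed are not given here.

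Transcript usage, whether transcripts of a gene changed by unequal amounts, was called in 33 of 7518 genes (0.439%) by the F test of diffSpliceDGE. The Simes test of the same function also called 33, and 21 genes were called by both. Of the 33 genes, 3 were also called as whole genes. In simulated counts the F test called more unchanged genes than its threshold allows and the Simes test kept closer to it, so both adjusted p are given in what follows.

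Usage changed in dnajb6b, a cochaperone of HSP70 (adjusted p 0.00107, by Simes 0.012). Its transcript XM_021310931.2 took 4.19%, 9.87% and 14.4% of the reads in SCO PCB40, against 2.03%, 2.72% and 5.29% in SCO Control, and its CPM was above every control in 6 of 6 libraries (log2 fold change 1.72, SE 0.38, adjusted p 0.025). The main transcript, XM_012853168.3, took 73.7%, 81.9% and 89.7% in SCO PCB40, against 85.5%, 90.1% and 93.3% in SCO Control, and was level in CPM (0.02). In cep43, a centrosomal gene (adjusted p 0.00722, by Simes 0.084 and so not called by that test), XM_021311484.2 took 13.8%, 19.8% and 25.6% of the reads in SCO PCB40, against 14.3%, 15.0% and 18.3% in SCO Control.

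In other genes a transcript was assigned reads in 1 group and none in the other. In enah, an actin regulator of the Ena/VASP family (adjusted p 0.00512, by Simes 0.00585), XM_036147103.1 took 18.2%, 38.7% and 70.2% of the reads in SCO PCB40 and was listed at 0 in every SCO Control library. Over 3 reads of it were assigned in 2 of 6 SCO Hg Fed, 5 of 6 NBH PCB40, 5 of 6 NBH PCB400 and 4 of 6 NBH Control libraries, so its presence varied within unexposed groups. The whole gene fell as counted (log2 fold change -0.58, adjusted p 0.00294). Its transcripts had effective lengths of 6199 to 7004 bases. They thus stood in the longest length class, with 272 falls as counted and 61 with the length trend removed. The result of enah with the trend removed is not given here.

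The phosphatidylinositol phosphatase gene ocrl showed an exchange of this kind (adjusted p 0.00427, by Simes 0.0504 and so not called by that test). XM_012861787.3 took 13.2%, 52.1% and 100% of the reads in SCO PCB40 and was listed at 0 in every SCO Control library. XM_012861786.3 was listed at 0 in every SCO PCB40 library and took 40.9%, 61.5% and 92.5% in SCO Control. In SCO Hg Fed the first had over 3 reads in 2 and the second in 4 of 6 libraries, and the gene as a whole was at -0.41 (adjusted p 0.54).

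LOC105937293 had the smallest p for usage (adjusted p 1.44e-08, by Simes 0.00585), but through a minor transcript. XM_036147879.1 took 0.451%, 2.98% and 3.92% of the reads in SCO PCB40 and none in SCO Control, while 4 of 6 SCO Hg Fed libraries held over 3 reads of it. Usage was also called in LOC118558243 (adjusted p 0.00722, by Simes 0.00585), mcf2a (0.022, by Simes 0.012) and tcf20 (0.022, by Simes 0.00326). Each involved a transcript with over 3 reads in libraries of only 1 of the 2 compared groups. In NBH Control these transcripts had over 3 reads in 6, 4 and 5 of 6 libraries, in the order of the genes. In tcf20, for example, XM_036148377.1 was listed at 0 in all SCO PCB40 libraries and had over 3 reads in 4 of 6 SCO Control libraries. When only transcripts with at least 10% of their gene's reads were kept, 6 genes were called for usage.

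**Figure D5:**
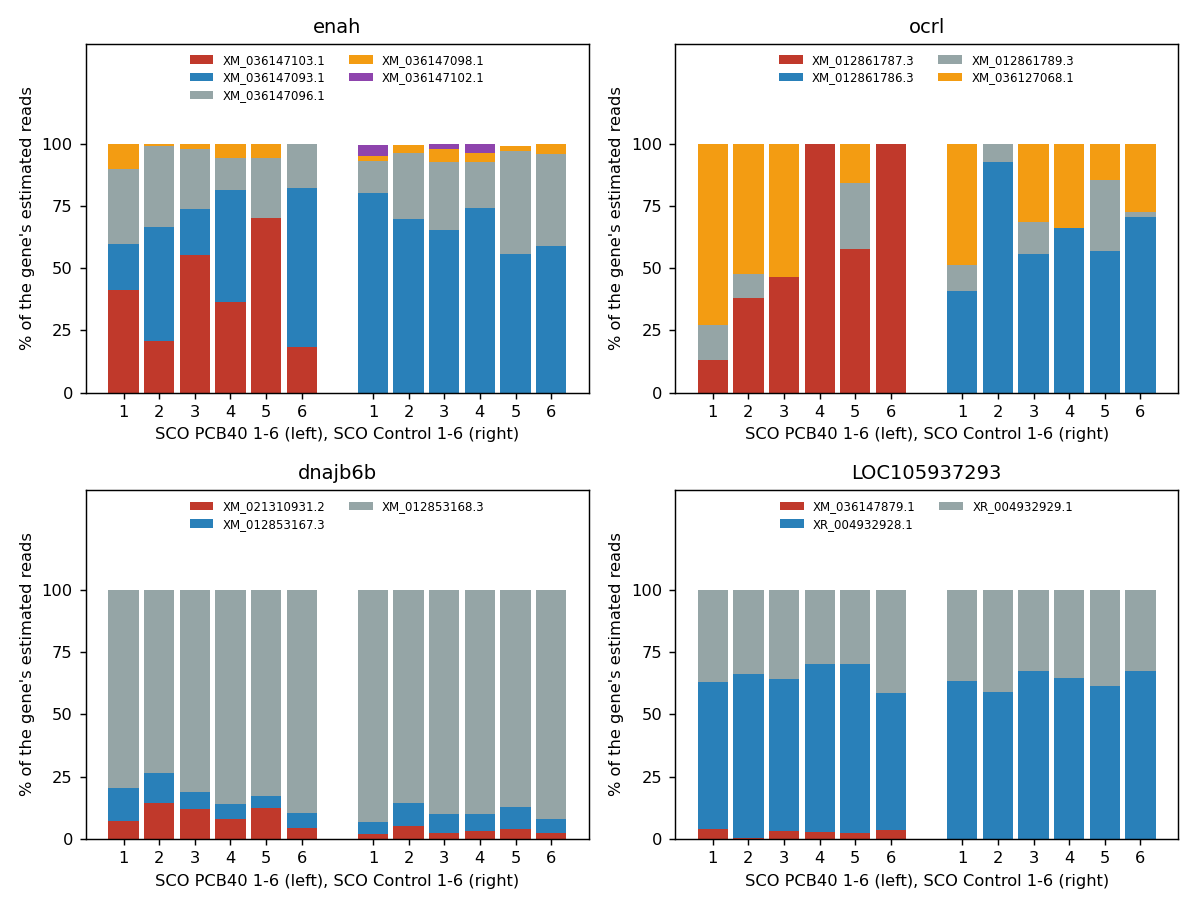
Share of each gene's estimated reads by transcript, 1 bar per library, with SCO PCB40 1 to 6 on the left and SCO Control 1 to 6 on the right. In enah and ocrl the red transcript takes 18.2% to 70.2% and 13.2% to 100% in SCO PCB40 and none in SCO Control, and in dnajb6b and LOC105937293 the red transcript is a minor one.

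In NBH PCB40 against NBH Control, 0 of 23292 genes were called. The responses to 40 ng/L of Scorton Creek and New Bedford Harbor embryos differed in 4 of the 23292 genes (0.0172%), all with the lower log2 fold change in Scorton Creek. They were fut9a (difference of log2 fold changes -1.56, SE 0.23, adjusted p 0.00156), kmt2e (-1.24, SE 0.20, adjusted p 0.00759), si:ch211-183d21.3 (-1.27, SE 0.22, adjusted p 0.017) and crk (-1.16, SE 0.21, adjusted p 0.031). In New Bedford Harbor fut9a had 12.6, 15.8 and 17.1 CPM in NBH PCB40, against 14.0, 20.0 and 23.1 CPM in NBH Control. Both New Bedford Harbor groups thus lay below the lowest SCO Control library, and the exposed Scorton Creek embryos were the group with the lowest median. In kmt2e the medians were 6.68 CPM in NBH PCB40 and 6.71 CPM in NBH Control, in crk 14.0 CPM in NBH PCB40 and 13.5 CPM in NBH Control, and in si:ch211-183d21.3 8.37 CPM in NBH PCB40 and 7.97 CPM in NBH Control. All 6 medians were below the SCO Control median of the same gene. These levels are as counted, and the length slopes of the groups differed. They were -0.17 to 0.15 in NBH PCB40 and -0.12 to -0.03 in NBH Control, against 0.02 to 0.14 in SCO Control. LOC118556247 and LOC118556460 came next and did not pass (both adjusted p 0.053), the second with 1.41, 3.08 and 5.22 CPM in SCO PCB40, against 7.33, 9.07 and 11.3 CPM in SCO Control. Both fut9a and si:ch211-183d21.3 were still called with the length trend removed, and kmt2e (adjusted p 0.30) and crk (adjusted p 0.232) were not. In the fit of only the compared groups the calls of si:ch211-183d21.3 (adjusted p 0.079) and crk (adjusted p 0.065) ended. DESeq2 called 77 genes for the difference, 22 with the higher and 55 with the lower log2 fold change in Scorton Creek. CYP1A had a difference of 1.33 (SE 0.87, adjusted p 0.67) and LOC118565211 one of 4.22 (SE 0.97, adjusted p 0.14). Neither difference was called. That of CYP1A was smaller than its log2 fold change of 4.96 in Scorton Creek. The 0 calls in NBH PCB40 therefore do not show that CYP1A failed to rise there.

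In NBH PCB400 against NBH Control, libraries that are not part of the Scorton Creek comparison, 870 genes were called (3.74%), of which 331 genes were higher (1.42%) and 539 lower (2.31%). Of the 174 genes higher in SCO PCB40, 27 were also higher there, which is 15.5% of the Scorton Creek list and 8.16% of the New Bedford Harbor list. Of the 448 genes lower in SCO PCB40, 5 were also lower there, which is 1.12% and 0.928% of the lists. Opposite calls were as many among the falls, with 5 genes lower in SCO PCB40 and higher there, and 1 gene was higher in SCO PCB40 and lower there. These overlaps are as counted. Length slopes were -0.10 to 0.16 in NBH PCB400 and -0.12 to -0.03 in NBH Control, so exposed libraries tended to the higher slopes, the reverse of Scorton Creek. The part of transcript length in the overlaps was not tested. LOC105916580 reached a median of 105 CPM in NBH PCB400 and 3.29 CPM in NBH Control (log2 fold change 4.61, SE 0.67, adjusted p 2.93e-04), and LOC118565211 a median of 19.2 CPM in NBH PCB400 and 0.326 CPM in NBH Control (6.18, SE 0.76, adjusted p 4.00e-05). The neighbouring si:dkey-238o13.4 reached 10.4 CPM in NBH PCB400 and 0.0960 CPM in NBH Control. In that comparison fut9a was at -0.11 (adjusted p 0.74). Set against SCO Hg Fed instead of SCO Control, with the same exposed libraries, SCO PCB40 had 543 called genes (2.33%), and fut9a had a median of 41.2 CPM in SCO Hg Fed.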

How the data were processed

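Total RNA of single embryo brains was isolated on RNeasy Micro columns, as the labels' protocols state. Salmon 1.3.0 and edgeR 3.30.3 are named in the submitters' processing notes. The genome build is not given in the sources used here. The authors deposited, per transcript and library, expected counts (estimated reads), an effective length in bases, which was used as another measure for length classes, and TPM scaled within a library. All 56244 transcripts matched the RefSeq table of MU-UCD_Fhet_4.1, used for names and gene order only, giving 31637 genes.

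Expected counts were summed per gene, rounded, filtered with filterByExpr and scaled by TMM. One edgeR 4.0.16 quasi-likelihood model (R 4.3.3, limma 3.58.1, DESeq2 1.42.0) was fitted to all 36 libraries with a mean per group and p adjusted by Benjamini-Hochberg. The common biological coefficient of variation was 0.389. SE is the absolute log2 fold change divided by the square root of F. Transcripts were fitted alike, and usage was tested with diffSpliceDGE. Length slopes used genes above 2 log2 CPM. The fits were tested on simulated data, in which the usage F test called more unchanged genes than its threshold allows and the Simes test kept closer to it.

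The gene lists (35, 1112 entries, 842 matched) and the comparison were chosen with earlier results of these data known. Named genes are the 12 higher and 12 lower with the smallest p, 8 of each with only a LOC number, up to 3 called members per list, CYP1A and ahrr, and the first 6 higher and 6 lower transcripts of genes not called, 8 usage genes and 6 genes for the difference of responses. Other members are named from their lists, and 1 gene that the rule names is not reported here. Replicate numbers did not pair the libraries (same-number correlations -0.0224 to 0.0999), so no block was used.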

Additional observations from a re-analysis of the deposited data

Results flagged for a closer look

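In 14 of the 72 named genes, each with 2 groups, 1 library stood far from the other 5 of its group by Dixon's criterion. Chance meets this criterion in about 1 in 20 groups, so part of the 14 may be due to chance. The highest SCO PCB40 library held 270 CPM of CYP1A, 4.46 CPM of si:ch211-136m16.8, 3.69 CPM of LOC105936893, 13.4 CPM of LOC105936753, 30.6 CPM of chchd3b and 5.30 CPM of spi1b. The highest SCO PCB40 library also held 24.0 CPM of ckmb, 12.6 CPM of atp2a1l, 1.64 CPM of ahrr and 19.6 CPM of LOC118558822. The highest SCO Control library held 2.09 CPM of ncam3, 5.48 CPM of shank1, 108 CPM of kdm2ab and 50.4 CPM of avp.

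The log2 fold changes at 40 ng/L differed between Scorton Creek and New Bedford Harbor, by the test of the difference, in fut9a (-1.56), kmt2e (-1.24), si:ch211-183d21.3 (-1.27) and crk (-1.16).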

How the results depend on the processing

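The 622 gene calls became 1303 with DESeq2 (496 higher, 807 lower; 38.1% higher against 28.0%), 96 with only the compared groups, 356 with the length trend removed and 207 with only SCO libraries of positive length slope, a setting chosen after seeing the data. The 267 transcript calls became 158 with no filter, 1186 with DESeq2, 424 with voom, 35 with only the compared groups, 144 with the length trend removed, 432 with the length slope as covariate and 112 with positive slopes. The 33 usage calls became 99 with no filter, 4 with only the compared groups, 88 with the length slope as covariate and 6 with transcripts of at least 10% of their gene's reads. The 4 genes of the population difference became 77 with DESeq2, 7 with voom, 2 with only the compared groups and 12 with the length slope as covariate. With the length trend removed 3 genes were called, and of the original 4 only fut9a and si:ch211-183d21.3 were among them. The cause of these shifts was not tested. Leaving out 1 library gave 247 to 1462 genes, 86 to 550 transcripts and 14 to 44 usage genes.

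With the replicate number as a block, 643 genes, 264 transcripts, 14 usage genes and 4 genes of the population difference were called. The numbers did not pair the libraries, and 2 of the 6 SCO PCB40 libraries correlated best with the control of their own number.

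Of 71 called genes tracked, 29 were called in every setting run, 42 ended in at least 1 and none changed sign. Usage with the length trend removed was not run, because diffSpliceDGE takes 1 offset per library. RLE scaling moved the median of all genes from 0.03 to 0.04. Depth limits genes near 3 counts per library.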

Other observations

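Of 31 cell cycle genes 27 had a log2 fold change above 0, with a median of 0.29 (0.32 with the length trend removed, against 0.03 for all genes as counted), and none was called. Without SCO PCB40 replicates 4 to 6, a fit chosen after seeing the data, their median was -0.08. Of 27 proteasome genes 22 were above 0, with a median of 0.19 as counted, 0.04 with the trend removed and -0.33 without SCO PCB40 replicates 4 to 6. Of 72 ribosomal protein genes 56 were below 0, with a median of -0.11, and none was called. Of 43 nuclear genes of mitochondrial respiration none was called as counted, and their median was -0.01, or -0.37 without SCO PCB40 replicates 4 to 6. All 5 measured posterior hox genes were above 0 with a median of 0.70, and none was called. Their summed level was 0.174, 5.49 and 42.1 CPM in SCO PCB40, against 0.0347, 7.16 and 15.5 CPM in SCO Control. Of 9 pituitary genes 8 were below 0 and none was called, and their summed level was 26.6, 57.1 and 349 CPM in SCO PCB40, against 54.6, 169 and 284 CPM in SCO Control.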
